A study of Caenorhabditis elegans with 2 samples.

Results

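The regions described here are 464 autosomal regions of ChIP-seq signal of the zinc-finger factor ZTF-11 whose summits lay in exons of protein-coding genes, away from promoters, among 30000 regions listed from the pooled reads. They were chosen by their pooled signal and by annotation. The authors named the list of 30000 as peaks and background. Only 2 of the 464 were among the 88 peaks of their thresholded list, so the rest are regions of signal that did not pass that threshold. The 5000 regions of highest signal were kept, the X chromosome was left out, and a summit had to lie more than 500 bp from every protein-coding transcript start and inside an annotated coding or untranslated exon. Of the 4154 autosomal regions among the 5000, 1258 were within 500 bp of a start, 1192 were intronic, 1240 were intergenic and 464 (11.2%) were exonic. Signal and exonic position were therefore fixed by the choice and are given as a description, with no test.

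The data were chromatin immunoprecipitation sequencing (ChIP-seq) lists from whole Caenorhabditis elegans at the first larval stage (L1), pooled over males and females, with the age given as unknown. All animals were of the strain OP236, whose genotype is unc-119(ed3) III; wgIs236, a stable transgenic line in which ZTF-11 carries GFP-FLAG as a C-terminal fusion. The samples formed 1 group of 2 biological replicates with 1 technical replicate each, fragmented by sonication, so there was no contrast between conditions. Whole larvae mix all tissues, the tagged protein came from a transgene, and the strain of the control library was not given in the sources used here.

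ZTF-11 is the worm member of the Myt1 family of zinc-finger factors, which in vertebrates promote neuronal differentiation by repressing genes of other fates. In C. elegans it is known for a role in neurogenesis. Myt1 family zinc fingers are known to bind the word AAGTT. Coding exons carry the triplet code and in the worm are richer in G and C than introns and intergenic DNA.

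Short stretches of coding sequence at 9 of the regions are shown because the results turn on whether that word lies at exonic summits. Each stretch is 30 bases from the RefSeq genome of the build ce11 (WBcel235), written 5′ to 3′ on the strand of the host gene. In the first 4 the word lay within 50 bp of the summit, and capitals mark AAGTT or its reverse complement AACTT.
tag-329: tgaggaataagaAAGTTggtggacactaca
parg-1: aagagatgtcggAACTTgttggtagagaag
gcy-27: tcgctcccgctagAAGTTatgcatcggcaa
acy-2: cttatggagcagAAGTTtatgttggctata

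These stretches were at V:9535486-9535515 in tag-329, IV:8750160-8750189 in parg-1, IV:17433856-17433885 in gcy-27 and V:5979274-5979303 in acy-2. Their regions had pooled signals from 27.5 in acy-2 to 28.2 in tag-329. They are the coding regions of highest signal on chromosomes II to V for which the word fell inside a single coding segment near the summit.

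The other 5 are centred on the summits of coding regions of high signal with no such word within 50 bp. They carry no capitals.
dos-3: acaaatactattatcacccggaatccgtga
Y53F4B.21: tggatcttttgcagaatttcacacatttcg
C07E3.8: catttggttgttgttggaaaaaacatatta
xpd-1: tatttcacagaaaaatgccgatcgagcact
srh-8: tctattagaagtgtacatgggaatcatatg

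They were at III:835958-835987 in dos-3, II:15104163-15104192 in Y53F4B.21, II:10353131-10353160 in C07E3.8, III:268754-268783 in xpd-1 and V:4006527-4006556 in srh-8. Their pooled signals ran from 30.7 in srh-8 to 53.4 in dos-3, above those of the 4 regions shown with the word. That order comes from the choice of examples and was not tested. Coding summits with the word within 50 bp that are not shown, of higher signal than acy-2, were in bgnt-1.1 (35.5), Y23H5B.5 (32.1), msh-2 (29.0) and C01B10.44 (27.6). Of these, Y23H5B.5 and msh-2 are on chromosome I. Also not shown was oct-1 on chromosome I, at 51.1 without the word.

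Exons held a smaller share of the strongest regions than of the genome they could have fallen in. Of the 2896 autosomal regions among the 5000 that lay more than 500 bp from a start, 16.0% were exonic (exact 95% interval 14.7% to 17.4%, which here and below covers the counting of regions only). Exons made up 27.9% of autosomal bases at that distance, sampled at every 100th base. Below rank 5000 the share was 2940 of 15278, or 19.2% (18.6% to 19.9%). In steps of 2500 ranks it was lowest, 14.0%, over the first 2500 and highest, 21.7%, over the last. In steps of 5000 ranks it went from 16.0% to 21.1% in the pooled list and from 15.4% to 20.1% in replicate 1, but in replicate 2 it stayed between 21.8% and 23.9% with no such order. Of the 88 peaks in the authors' consensus list, 20 were autosomal and away from starts, and 2 of those (10%, 1.23% to 31.7%) were exonic.

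The replicates differed in this share. Ranked by its own signal, the list of replicate 1 gave 467 exonic regions among its 5000 highest, 15.4% of autosomal regions away from starts. The list of replicate 2 gave 617, or 21.8% (20.2% to 23.3%). The median GC content of windows of 101 bases at autosomal summits among the 5000 highest moved in the same order, with 29.7% in replicate 1, 30.7% in the pooled list and 33.7% in replicate 2. Its part in the difference between the replicates was not tested.

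**Figure D1:**
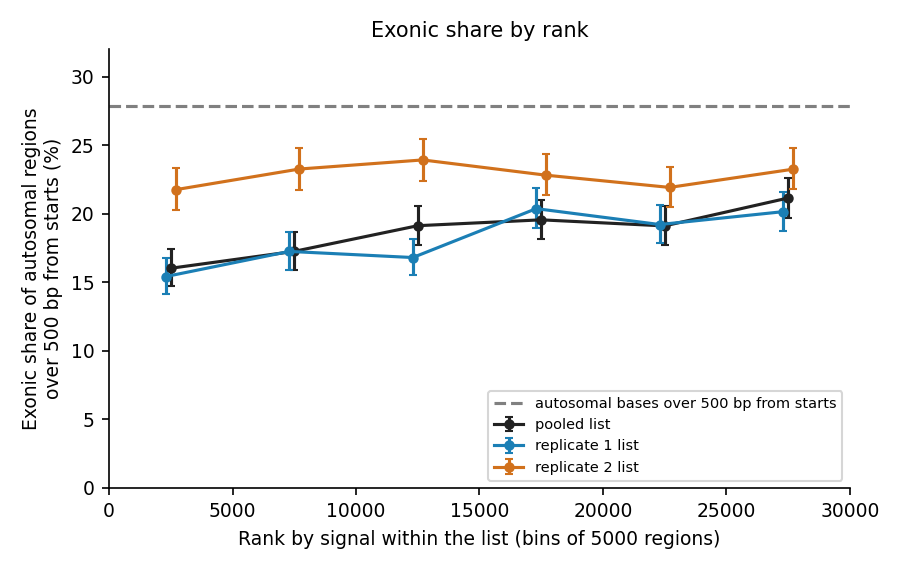
Exonic share (%) of autosomal regions more than 500 bp from protein-coding starts, in bins of 5000 ranks, for the pooled list and for each replicate's own list. Points are shares, bars are exact 95% intervals over regions, and the dashed line is the exonic share of autosomal bases (27.9%). Every bin of all 3 lists lay below the line, and replicate 2 lay above replicate 1 in each bin.

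Within the 5000 the exonic regions had the lowest median signal of the autosomal classes, by a small margin. Their pooled signal, a value per region given by the authors and used to choose them, ran from 20.97 to 53.4 with a median of 23.3 and quartiles of 21.98 and 25.4. Median signals were 24.3 within 500 bp of starts, 23.6 in introns and 23.8 between genes. The median rank was 2796 in exons, 2203 near starts, 2593 in introns and 2514 between genes. The highest signals were 127 near starts, 87.4 between genes and 49.5 in introns. The consensus list held 48 of the 1258 regions near starts, 14 intergenic, 4 intronic and 2 exonic regions. The exonic regions just inside the threshold lay in K08E4.8 (20.97), perm-5 (20.97) and C24H12.1 (20.97), and the nearest ones outside it in ncx-8 (20.96), ptp-5.3 (20.95) and ver-1 (20.93), so the threshold cuts through a continuum.

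**Figure D2:**
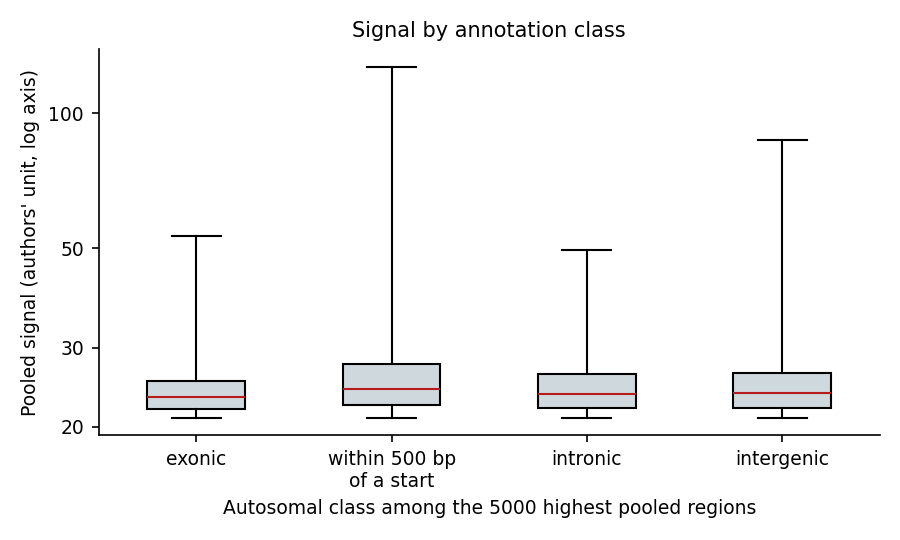
Pooled signal (authors' unit, log axis) of the 464 exonic regions and of the 3 other autosomal classes among the 5000 highest regions. Boxes span the quartiles with the median as a red line, and whiskers reach the lowest and highest region. The exonic median of 23.3 is the lowest, beside 24.3, 23.6 and 23.8, and the upper quartile is 25.4 for exonic regions and 27.7 near starts.

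Both exonic consensus peaks lay in coding sequence. The higher was in dos-3, whose protein belongs to the DOS-domain family of Notch co-ligands, in the last of 11 exons at III:835797-836146. Its pooled signal was 53.4 (rank 33), with 21.6 for replicate 1 (rank 232) and 31.99 for replicate 2 (rank 26). The summit was 221 bp from the end of the transcript and 1667 bp from the nearest start.

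The other was in oct-1, which encodes an organic cation transporter, in exon 11 of 13 at I:9889059-9889408. Its pooled signal was 51.1, with 27.8 for replicate 1 and 25.4 for replicate 2. Its ranks of 44 and 63 gave the lowest summed rank of any exonic region. The oct-1 region lay 15069 bp from ztf-11 itself, the gene tagged in the transgene. Within 20 kb of ztf-11 there were 22 regions of the 5000 highest, of which the exonic ones were those in oct-1 and in col-64, a cuticle collagen gene (signal 25.2). That interval held 0.431% of the 464 (0.052% to 1.55%, from 2 regions) and 0.44% of the 5000. The exonic regions were thus near the share of the 5000, which were also chosen by high signal and include the X chromosome. Whether either share is high for the length of the interval was not tested. By class it held 0.159% of regions near starts, 1.01% of intronic and 0.484% of intergenic ones. Of the 2940 lower exonic regions 1 (0.034%) lay there, a smaller share than that of the 464. None of the 464 lay within 20 kb of unc-119.

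Of the 20 exonic regions of highest pooled signal, 10 ranked among the 5000 highest of both replicates, and several ranked far apart in them. In the 3′ UTR of ced-10, the Rac GTPase of cell corpse engulfment and migration, the pooled signal was 35.8, with 13.4 in replicate 1 (rank 4692) and 24.9 in replicate 2 (rank 67). In the 3′ UTR of spr-5, the worm LSD1 histone demethylase, it was 35.8, with 15.2 in replicate 1 (rank 2426) and 20.8 in replicate 2 (rank 165). The region in xpd-1, the homolog of the XPD helicase of TFIIH, had a pooled signal of 31.7 but ranked 20375 in replicate 1 and 146 in replicate 2. These 3 were high in replicate 2 and lower in replicate 1.

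The opposite order was found in Y53F4B.21, with a pooled signal of 35.6 and ranks of 193 in replicate 1 and 4937 in replicate 2. It was also found in the F-box gene fbxa-62, at 30.3 with ranks of 926 and 8810. Regions in F58D5.5 (35.04), Y23H5B.5 (32.1) and the chemoreceptor-type gene srh-8 (30.7) matched no region of replicate 1 and ranked 122, 37 and 113 in replicate 2. More even ranks were found in smu-1, a splicing factor gene, at 1050 and 1786, and in ints-6, an Integrator complex gene, at 1238 and 1578. The other regions among the 20 highest, in bgnt-1.1, F38A6.5, mig-6, C07E3.8, hgap-2, F22B7.9, ipla-1 and srz-71, had pooled signals from 30.3 to 35.5.

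Most exonic regions were listed in both replicates, but few ranked high in both. A summit within 200 bp was found in the list of replicate 1 for 388 regions (83.6%), in that of replicate 2 for 387 (83.4%) and in both for 312 (67.2%, 62.8% to 71.5%). Over all autosomal regions of the 5000 the share in both lists was 68.7%, so the exonic regions were at the background. Since the pooled list holds the reads of both replicates, these matches are not independent of the choice and were not tested.

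Among the 5000 highest of both replicates there were 30 exonic regions (6.47%, 4.40% to 9.10%), where the share over all autosomal regions was 10.1%. The shares were 14.0% (12.1% to 16.03%) near starts, 8.14% (6.65% to 9.84%) in introns and 9.35% (7.79% to 11.1%) between genes. The 5000 highest of replicate 1 matched 181 of the exonic regions, those of replicate 2 matched 185, and 128 matched neither. By part, 19 of 322 coding regions (5.90%) and 11 of 138 in 3′ UTRs (7.97%) were in both.

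The sets taken by the same choice from each replicate alone shared few regions, as did all autosomal regions of each replicate's 5000 highest. Of the 467 exonic regions of replicate 1, 162 (34.7%) matched one of the 464 and 24 (5.14%) matched an exonic region of the same rank range in replicate 2. Of the 617 of replicate 2, 167 (27.1%) matched one of the 464 and 23 (3.73%) one of replicate 1. Over all autosomal regions, a match of the same class in the other replicate was found for 9.53% in replicate 1 and 9.64% in replicate 2, with 14.5% and 13.1% near starts. These differences between classes were not tested. The regions of lowest summed rank after oct-1 and dos-3 lay in hpr-9, a gene of the 9-1-1 DNA damage checkpoint clamp (ranks 149 and 1238), and then in spr-5, ints-6, smu-1, fbxa-99, F53H2.3, bgnt-1.1 and hgap-2. The hpr-9 summit was 630 bp from a start and 200 bp from a summit near a start that was also among the 5000. Matching took the highest replicate region within 200 bp, so the hpr-9 ranks could be those of the summit near the start. Which summit they belong to was not tested.

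**Figure D3:**
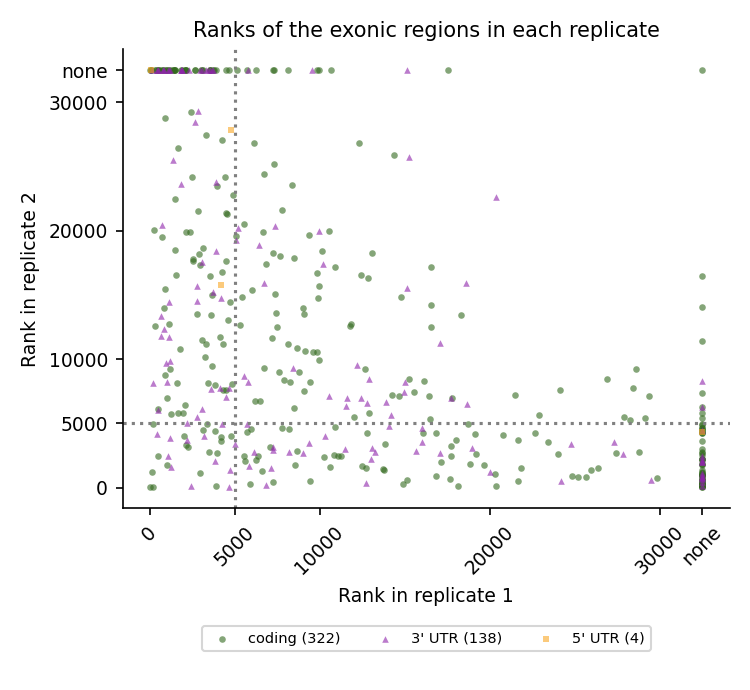
Rank of each of the 464 exonic regions in replicate 1 (x axis) and replicate 2 (y axis), by part of the gene, with "none" for regions without a summit within 200 bp in that list and dotted lines at rank 5000. The lower left corner, high in both replicates, holds 30 regions, and most points lie along one axis or the other. Beyond both dotted lines there are 128 regions. A region had to be high in the pooled reads to be drawn, so the plot is no measure of how the replicates relate over all regions.

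The exonic regions lay nearer to the 3′ ends of genes than exonic bases at large. Summits were in coding sequence in 322 cases (69.4%), in a 3′ UTR in 138 (29.7%) and in a 5′ UTR in 4. Among exonic bases that could have qualified, 87.2% were coding and 11.96% were in a 3′ UTR. Exonic regions below rank 5000 were in between, with 74.2% coding and 24.0% in a 3′ UTR. The coding odds ratio of the 464 against those lower regions was 0.789 (0.634 to 0.985), with p = 0.0315 by Fisher's exact test, two-sided. After Benjamini-Hochberg adjustment over the 5 tests made, the p of this Fisher's exact test was 0.121, which does not pass 0.05. On the list of replicate 1 alone the odds ratio was 0.661 (Fisher's exact test, adjusted p = 0.000749), past the threshold. On that of replicate 2 alone it was 0.847, not past the threshold. In all 5 tests the p counts regions, not replicates.

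By exon, 199 summits (42.9%) were in the last exon, 258 in internal exons and 7 in the first exon of several. The 1 summit in a transcript with a single exon is counted as last. The last exon held 38.5% of the lower exonic regions and 26.96% of the bases that could have qualified. The odds ratio against the lower regions was 1.20 (0.977 to 1.47, Fisher's exact test, p = 0.0818, adjusted p = 0.136). It was 1.43 on the list of replicate 1 alone (Fisher's exact test, adjusted p = 0.00101) and 1.08, not past the threshold, on that of replicate 2. The last 10% of the spliced transcript held 100 of the 464 summits (21.6%), 17.3% of the lower ones and 11.1% of the bases.

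The regions in 3′ UTRs had a median signal of 23.4, beside 23.3 in coding sequence. Their median distance to the transcript end was 154.5 bp, and that of the coding regions was 1318 bp. Examples besides ced-10 and spr-5 were ints-6, 40 bp from the transcript end, the phospholipase gene ipla-1 at 203 bp, and ztf-27, a zinc-finger gene, at 40 bp. All 4 regions in 5′ UTRs lay in long exons, of 1780 to 2945 bp. Leaving out 500 bp around starts limits 5′ UTR summits in a first exon to longer exons, so this follows in part from the choice.

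**Figure D4:**
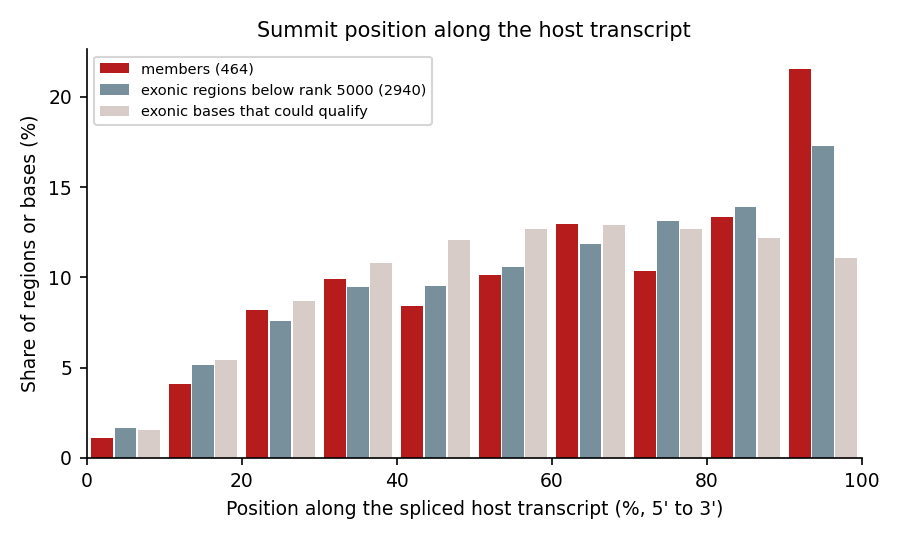
Share (%) of summits or bases in bins of 10% of the spliced host transcript, from its 5′ to its 3′ end, for the 464 exonic regions, the 2940 exonic regions at lower ranks and the exonic bases more than 500 bp from starts. The 464 were at 21.6% in the last bin, where the lower regions were at 17.3% and the bases at 11.1%. The low first bins follow from leaving out 500 bp around starts.

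Starts of other transcripts were near for part of the regions. The distance from a summit to the nearest protein-coding start ran from 503 to 17219 bp with a median of 1453.5 bp. It was at most 1000 bp for 139 regions (29.96%) and more than 2000 bp for 158 (34.1%). The farthest was in lpd-3. In 174 cases (37.5%) the nearest start was that of a gene other than the host. The start of a gene that is not protein-coding lay within 500 bp of 51 summits (11.0%), beside 8.13% of lower exonic regions and 6.96% of bases. The odds ratio was 1.40 (0.993 to 1.93, Fisher's exact test, p = 0.0485, adjusted p = 0.121).

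Some exonic regions lay close to another region of the 5000. A summit near a start among the 5000 lay within 1000 bp of 8 of them, and any other summit of the 5000 within 1000 bp of 28 (6.03%, 4.05% to 8.60%). The latter share was 10.5% near starts, 7.97% in introns and 7.90% between genes, and was not tested. Summits nearer than 500 bp to a start were left out by the choice, which limits the first count. The region in rpl-3, a ribosomal protein gene, was 1058 bp from such a summit. In 3 cases the summit was also inside a non-coding gene, a piRNA gene in srz-71, an antisense RNA gene in ztf-1 and a snoRNA gene in vbh-1. Exons of more than 1 protein-coding gene overlapped at 5 summits. Regions with a word of 31 bases present more than once in the genome numbered 45 (9.70%), beside 10.1% of lower exonic regions (odds ratio 0.952, 0.669 to 1.33, Fisher's exact test, p = 0.868, adjusted p = 0.868).

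The AAGTT word was not more frequent at the exonic summits than at weaker exonic ones. It lay within 50 bp, on either strand, at 139 of 464 (29.96%, 25.8% to 34.4%) and at 31.1% of the 2940 lower regions. The odds ratio was 0.947 (0.759 to 1.18, Fisher's exact test, p = 0.627, adjusted p = 0.784). It was 1.03 on the list of replicate 1 alone and 0.957 on that of replicate 2. The word was found in 32.3% of windows of the same 101 bases centred on exonic bases that could have qualified. It was found in 37.9% of windows 400 bp to either side of the 464 summits. These flanking windows were not confined to exons, and the median length of the exons at the 464 was 328.5 bp. At the other autosomal regions of the 5000 the word was found in 34.3% near starts, 39.8% in introns and 41.5% between genes.

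Parts of the exonic set differed little in the word. It was present at 30.4% of coding summits, 29.0% of those in 3′ UTRs and 8 of the 30 in the 5000 highest of both replicates (26.7%, 12.3% to 45.9%). Neither dos-3 nor oct-1 had it. In a ranking of all 512 distinct words of 5 bases by the ratio of their share at the 464 to that at the lower regions, chosen after the values were seen, AAGTT was number 286. The first was GTCTA, at 9.70% and 6.56%, which was not tested. The absence of a word says only that these letters are not in the window.

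GC content was higher at the exonic summits than at the other classes. Its median over 101 bases was 36.6% at the 464, 37.6% at lower exonic regions and 39.6% at exonic windows that could have qualified. It was 32.7% near starts and 28.7% both in introns and between genes. Coding summits had a median of 39.6% and those in 3′ UTRs 29.7%. The share of AAGTT was higher in introns and between genes, where GC content was lowest. Summits in 3′ UTRs, with a median GC content of 29.7% beside 28.7% in introns, had a share of 29.0% (21.6% to 37.3%). The share in introns was 39.8% (37.1% to 42.7%). The part of GC content in these shares was not tested.

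**Figure D5:**
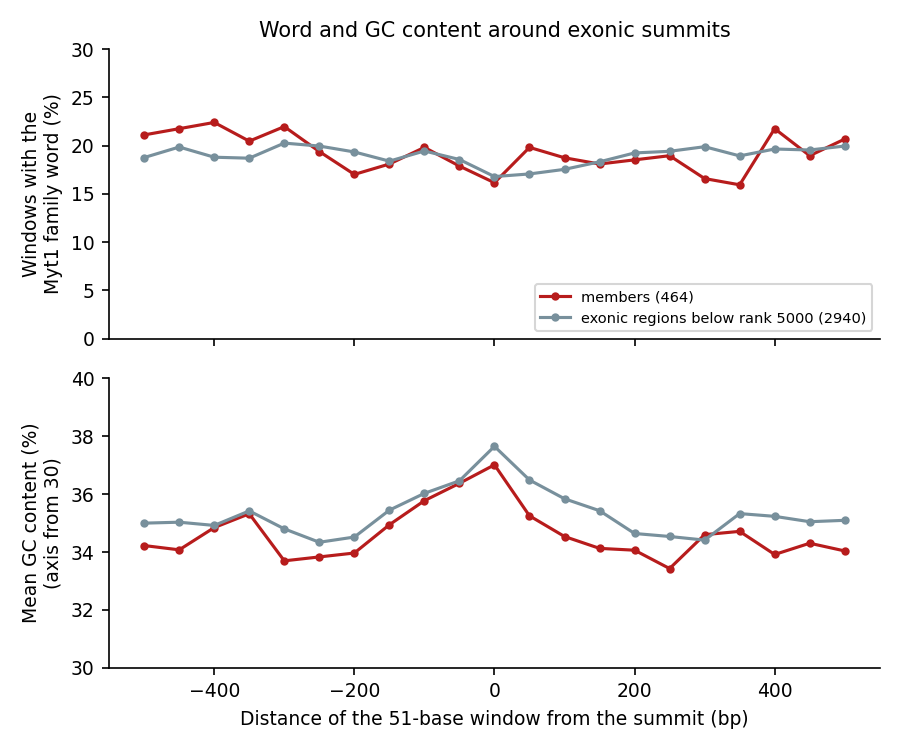
Share (%) of windows of 51 bases that hold the Myt1 family word on either strand (upper plot) and mean GC content (%, axis from 30; lower plot), by distance (bp) from the summit, for the 464 exonic regions and the 2940 at lower ranks. At the summit the word was in 16.2% and 16.8% of windows, and GC content peaked at 37.01% and 37.7%. No rise of the word at distance 0 is seen in either set.

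The 464 regions lay in 450 host genes of 15300 autosomal protein-coding genes with exonic bases that could have qualified, or 2.94%. By chromosome, I held 20.9% of the regions, III 22.2%, IV 21.6% and V 22.4%. Chromosome II had 60 of them, or 12.9% (10.01% to 16.3%), 17.6% of the lower ones and 19.3% of the bases. Chromosome III had 22.2%, 19.6% and 17.8% in the same order. The middle of the chromosomes, from 25% to 75% of their length, had 49.6% of the regions, 52.3% of the lower ones and 58.9% of the bases.

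More than 1 region fell in 13 host genes, and ceh-92, a homeobox gene, was the one with 3. Its regions were in exons 2, 6 and 9 of 10, with pooled signals of 26.4, 22.3 and 23.5. In replicate 1 they ranked 909, 9836 and unlisted, and in replicate 2 they ranked 28756, 10596 and 1794, so none was high in both. The genes with 2 regions, listed after the values were seen, were hpr-9, smu-1, ced-10, ints-6, gck-3, egl-23, unc-62, apg-1, pign-1, mrp-8, irld-56 and F58D5.5.

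Host genes were counted in gene groups, beside the 2.94% of all eligible genes and with no test. A share of genes does not allow for how many bases of each gene could have qualified. Among regulators of transcription, nuclear hormone receptors had 11 hosts of 246 eligible genes (4.47%), of which nhr-84 was highest (28.5). The region in nhr-12 had a pooled signal of 25.6 and ranked 54 in replicate 1 but matched none in replicate 2. The ztf zinc-finger genes, grouped by gene name and not by type of zinc finger, had 3 hosts of 22, ztf-27 (28.8), ztf-1 (22.8) and ztf-6 (21.3). Transcription factors of neuronal fate had 2 of 87, ceh-92 and the homeobox gene ceh-58 (25.97). Chromatin and transcription machinery had 1 of 77, the Polycomb-type gene mes-3 (26.3), which ranked 84 in replicate 2 and was unlisted in replicate 1. That list is not complete: it leaves out the hosts spr-5, xpd-1 and ints-6 named above and, found after the values were seen, cec-3, jmjd-1.1, hda-10 and ctr-9.

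Among genes of neurons and signalling, a short list of neuronal and synaptic genes had 0 hosts of 28. It leaves out unc-57 (26.5), elks-1 (24.5) and tom-1 (23.6), synaptic genes that were hosts and were found after the values were seen. Notch pathway genes had 1 of 24, sel-2 (21.7), a negative regulator of the receptor LIN-12. The list did not hold dos-3. The chemoreceptor-type serpentine genes, a group added after the values were seen, had 21 of 1263 (1.66%), and 4.53% of the 464 regions lay in them beside 4.88% of the bases.

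Large and housekeeping families were near or below the background. F-box genes had 7 hosts of 303 (2.31%), C-type lectins 2 of 232 and MATH-BTB genes 0 of 70. The collagen list had 2 of 158, col-64 and bli-4, the latter encoding a protease that processes cuticle collagens rather than a collagen. Ribosomal protein genes had 1 of 39, rpl-3 (25.7), aminoacyl-tRNA synthetases 1 of 32, aars-1 (25.4), and chaperones 2 of 50, the DnaJ genes dnj-1 (23.0) and dnj-16 (21.03). Muscle genes had 1 of 30, unc-112 (21.7), the worm kindlin. Translation factors had 0 of 32, tubulins 0 of 12 and a short list of extracellular matrix genes 0 of 11. The matrix list held 0.58% of the bases and leaves out the hosts mig-6, a papilin gene, and fbn-1 (24.04), a fibrillin gene. With so few hosts a group, the counts do not separate these groups from the background.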

How the data were processed

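Per the deposited README texts, the authors made narrowPeak lists of 30000 regions for each replicate and for the pooled reads, as input for the irreproducible discovery rate procedure, and a thresholded list of 88 peaks (here the consensus). The signal of each region is the authors' deposited value, with no scaling between lists stated. Aligner, peak caller and filters: not given in the sources used here. Read counts are not part of the lists, so depth was unknown.

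All pooled regions were 350 bp wide. Summits on ce11 were placed on the Ensembl release 115 annotation of WBcel235 with Python 3.11.15 and numpy 2.4.6, and the figures were drawn with matplotlib 3.10.9. Replicate regions matched within 200 bp of the summit. Of the 5 Fisher tests (scipy 1.17.1), each set the 464 against exonic regions below rank 5000. Intervals are exact Clopper-Pearson, 95%. The host was the annotated gene whose exon held the summit. The code was tested on simulated data. Named genes were the 20 of highest signal, consensus peaks, hosts of 3 or more regions, those within 20 kb of ztf-11, gene group hosts, the 10 lowest summed ranks and the 3 on either side of the threshold; of the gene group hosts, examples are given. The members, gene groups and tests were chosen with earlier results of these data known.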

Additional observations from a re-analysis of the deposited data

How the results depend on the processing

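Of 61 alternative values, 44 changed little: no odds ratio among them turned direction or crossed the threshold, shares stayed inside the exact 95% interval of the value reported, and counts stayed within 1.5 times it. The AAGTT odds ratio turned from 0.947 to 1.01 for the 2500 highest regions, 1.001 for the word within 100 bp and 1.03 on the list of replicate 1 alone (0.957 to 1.03 with either replicate left out). The repeated-word odds ratio turned from 0.952 to 1.06 against exonic regions below rank 5000 and down to 10000. Without replicate 2, the coding odds ratio was 0.661 (0.661 to 0.847 over both lists; adjusted p = 0.000749 by Fisher's exact test) and the last-exon odds ratio 1.43 (1.08 to 1.43; adjusted p = 0.00101), so both passed the threshold on the list of replicate 1 only. The exonic share was 14.0% for the 2500 highest, 17.996% with starts of all annotated transcripts, 11.1% for coding sequence only, and 15.4% to 21.8% with a replicate left out. The share listed by both replicates was 53.2% within 100 bp, 6.47% in the 5000 highest of each and 75.4% in the upper part of the 464. With 1 replicate left out, the share in the list of the other was 83.4% to 83.6%, which includes regions listed by both. The number of exonic regions was 193 of the 2500 and 987 of the 10000 highest, and 467 to 617 with a replicate left out. The cause of these changes was not tested beyond the changed number of regions.

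No paired analysis was possible because only 1 group was measured. With 2 replicates, no spread between replicates was estimated for any share.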
